A study of Mus musculus with 6 samples.

Results

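The retina of wild-type mice was compared on either side of birth, between embryonic day 16.5 (E16.5) and postnatal day 1 (P1), with 1 sequencing library of messenger RNA for each age. Every gene whose higher value of the 2 libraries was at least 1 RPKM (reads scaled by transcript length and by library size) was included, which took in 13704 of the 30042 genes of the deposited table. The choice of genes used no difference between the ages. Total RNA from freshly dissected retinas was enriched for mRNA on beads, and the libraries were built from fragmented double-stranded cDNA. Both libraries are labelled wild type, retina and strain 129/Sv; C57/BL6J, and the labels give neither the sex nor the number of animals behind a library. The series covers 6 ages with 1 library each, from E16.5 and P1 through P3, P7 and P14 to P28, and belongs to a study of mice that lack deiodinases, the enzymes that activate and inactivate thyroid hormone. Birth, age and the handling of a single library cannot be told apart in this comparison. The libraries for E16.5, P1 and P28 share one form of title and those for P3, P7 and P14 another.

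The mouse retina makes its neurons in a fixed order from dividing progenitor cells. Ganglion cells, horizontal cells, cones and many amacrine cells are born mainly before birth, while most rods, bipolar cells and Muller glia are born around and after it. At P1 the tissue therefore still contains dividing progenitors beside ganglion cells that are extending and sorting their axons and a growing number of young rods. Birth also ends the low oxygen supply of fetal life, and oxygen controls the hypoxia-inducible factors, which switch on glucose transporters and enzymes of glycolysis.

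Differences are given as P1 minus E16.5 of log2(RPKM + 1), a scale that understates the fold of genes near or below 1 RPKM. A gene was counted as higher or lower at P1 when this difference reached 1, which is a 2-fold difference for an abundant gene. By that rule 501 of 13704 genes (3.66%) differed, of which 160 (1.17%) were higher and 341 (2.49%) lower at P1. With 1 library per age there is no spread between retinas of the same age, so no test was possible and these counts describe the 2 libraries. The difference had a median of -0.02 and lay between -0.79 and 0.61 for the middle 90 percent of genes (5th to 95th percentile), and 10734 genes (78.3%) lay within 0.5 of 0. Just inside the threshold stood S1pr1, with 5.49 RPKM in the E16.5 library and 2.24 RPKM at P1 (difference -1.0), and just outside it stood Midn, with 92.8 and 45.9 RPKM. By the same rule 6.0% of genes differed from P1 to P3, 6.46% from P3 to P7, 5.86% from P7 to P14 and 1.91% from P14 to P28. Neighbouring steps share a library and were not compared with each other by any test.

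The excess of lower over higher genes grew with expression level. Among 5681 genes of 1 to 5 RPKM, 71 were higher and 62 lower. Among 7508 genes of 5 to 50 RPKM, 81 were higher and 217 lower. Among the 515 genes of at least 50 RPKM, 8 (1.55%) were higher and 62 (12%) lower, with a median difference of -0.31.

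**Figure D1:**
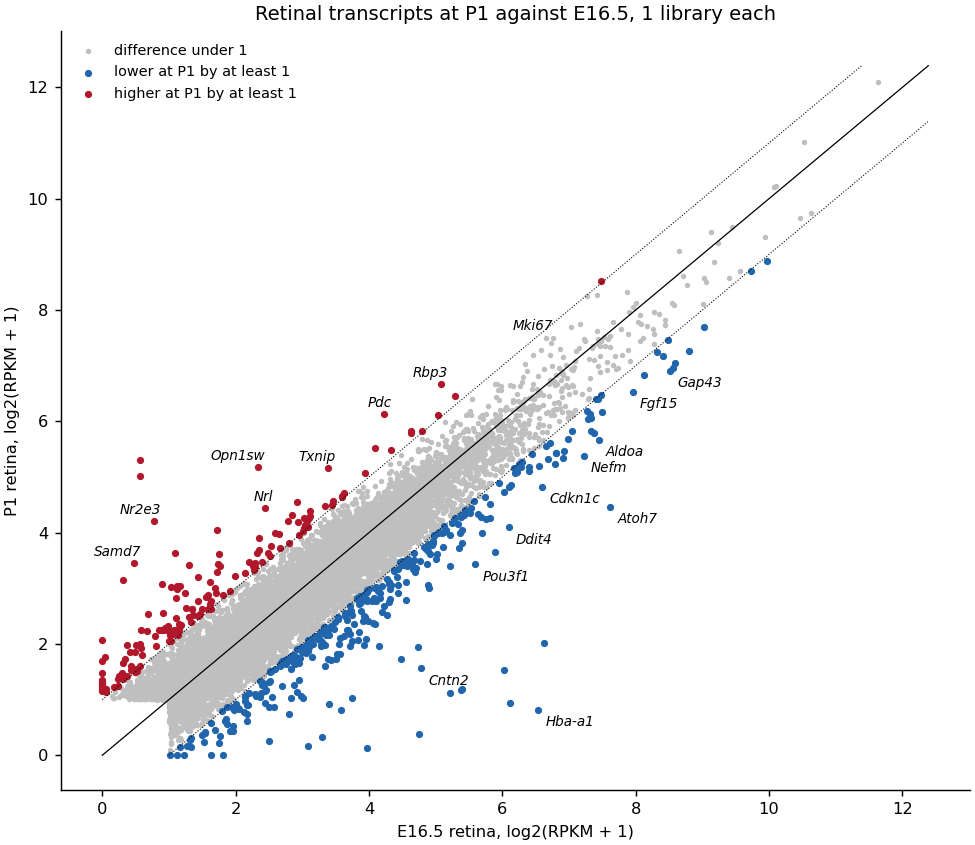
Level of each of the 13704 genes in the P1 library (vertical axis) against the E16.5 library (horizontal axis), both as log2(RPKM + 1); the solid line marks equal levels and the dotted lines a difference of 1. Of all genes, 160 (red) lay above and 341 (blue) below the dotted lines, with Nr2e3 and Samd7 far above and Atoh7, Cntn2 and the globin Hba-a1 far below.

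Estimated from the steps that single reads leave in the low values, the E16.5 library held 14460000 reads and the P1 library 12768000. A single read in a gene of 2 kb was then worth 0.0346 RPKM in the E16.5 library and 0.0392 RPKM at P1. RPKM summed to 179379 and 161740, and the 10 highest genes took 7.46% and 8.08% of these sums. Base composition moved with the difference between the libraries. Over the 12596 genes (91.9%) with a reference transcript, Spearman's rank correlation of the difference with GC content was -0.49 as a description, against 0.27, 0.02, 0.03 and 0.13 for the 4 later steps. The median difference was 0.20 in the decile of genes with the lowest GC content and -0.45 in the decile with the highest, and these deciles held 3 and 102 of the lower genes and 15 and 8 of the higher genes. After centring each decile on its own median, 150 genes were higher and 158 lower, so that higher genes made up 48.7% of those past the threshold instead of 31.9%. Scaling both libraries to a common sum without the 50 highest genes moved the median of all genes to 0.09 and the counts to 234 higher and 239 lower (49.5% higher). Whether base composition or the RNA content of the tissue sets this balance was not tested, and GC-centred medians are therefore given beside most of the list medians below.

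**Figure D2:**
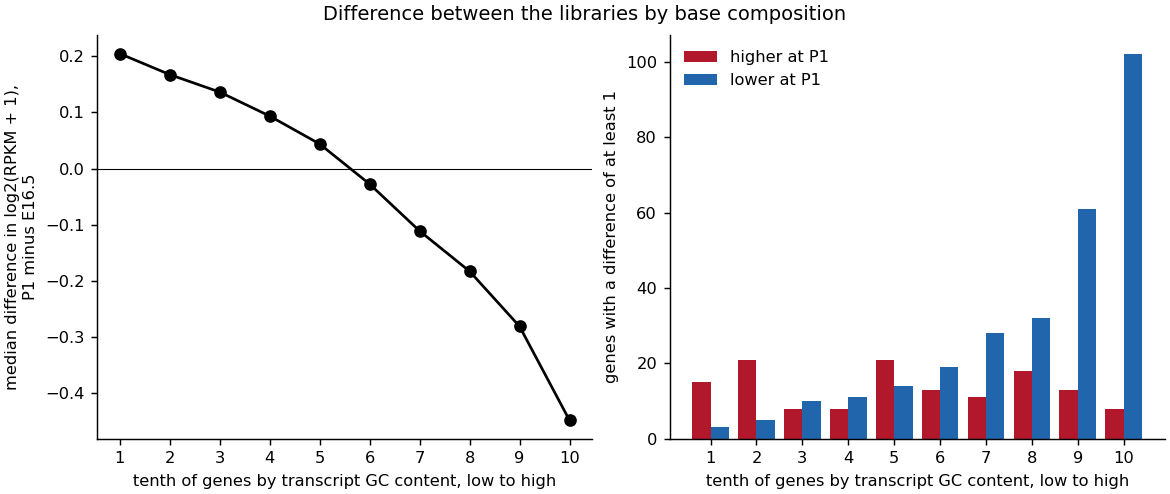
Median difference in log2(RPKM + 1), P1 minus E16.5 (left), and number of genes with a difference of at least 1 (right, red higher and blue lower at P1), in deciles of genes ordered from low to high transcript GC content. The median goes from 0.20 to -0.45 across the deciles, and the lower genes go from 3 to 102.

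The label of the tissue was checked against its markers. Both libraries held high levels of progenitor and neuronal transcripts of the retina, such as Ccnd1 (558 RPKM in the E16.5 library and 671 at P1), the cyclin of dividing retinal progenitors, and Pax6 (42.8 and 47.7 RPKM), a homeobox factor of the eye field. Xist, transcribed from the inactive X of females, stood at 87.4 and 145 RPKM, and the Y-linked Eif2s3y at 6.34 and 5.22 RPKM, so both libraries held transcripts of both sexes. Blood and lens transcripts were much lower at P1. The globin Hba-a1 stood at 91.7 RPKM in the E16.5 library and 0.753 RPKM at P1, and the 17 measured erythroid genes summed to 208 and 4.35 RPKM. All 5 erythroid genes that reached 1 RPKM were lower (background 2.49% lower), with a median difference of -4.10. They were Hba-a1, Hba-a2, Hbb-b1, Hbb-b2 and the heme synthesis enzyme Alas2. Their median level at P1 was 0.75 RPKM, so most of them passed the filter through the E16.5 library alone. Reads may be split between the near-identical globin copies, so the single values are uncertain. The embryonic globins Hbb-y (0.479 and 0.383 RPKM) and Hba-x (0.147 and 0.335 RPKM) were close to 0 at both ages.

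Of the 14 lens genes that reached 1 RPKM, 6 were lower and 0 higher (background 2.49% lower), with a median difference of -0.92 that was -2.07 when the filter was raised to 5 RPKM. Their median level at P1 was 0.90 RPKM, so most of these genes passed the filter through the E16.5 library alone. The gamma-crystallin Crygf went from 8.85 to 0.251 RPKM and Crybb1 from 11.7 to 3.77 RPKM. The 24 lens genes summed to 87.9 RPKM at E16.5, then 29.7 at P1 and 2.38 by P3. Their sum was 7.57 at P7, 11.6 at P14 and 50.5 at P28, so it did not keep falling with age. Muscle genes summed to 11.1 and 8.03 RPKM, connective tissue genes to 73.1 and 61.6, genes of pigment epithelium and melanocytes to 13.3 and 16.1, microglial genes to 17.0 and 15.8, and endothelial and pericyte genes to 44.7 and 66.0. Erythroid and lens material thus differed between the same 2 libraries as every group below, and its part in those differences was not tested.

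**Figure D3:**
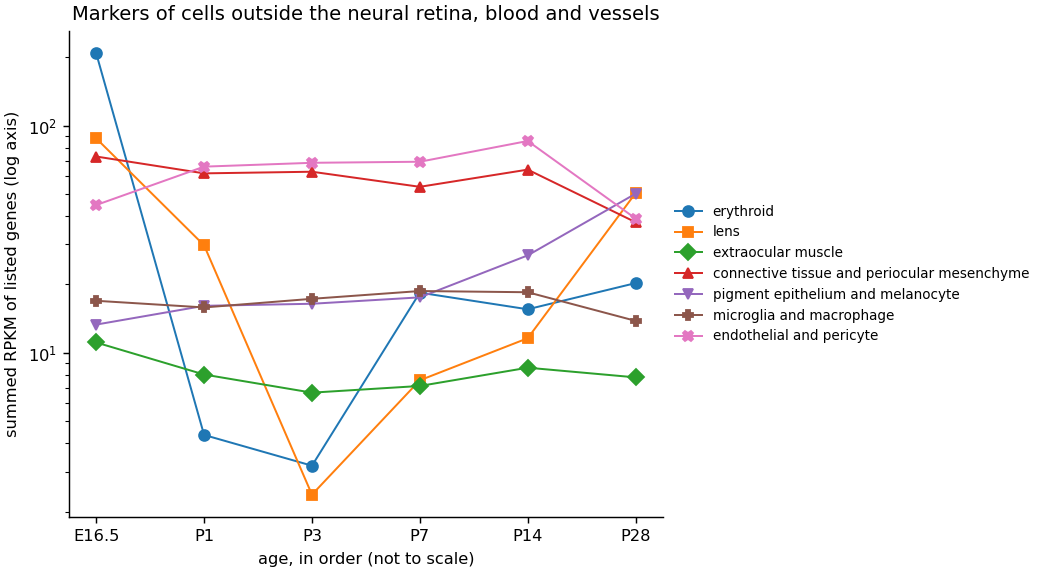
Summed RPKM (log axis) of all measured genes in lists for blood, lens, vessels and other tissues around the retina, by age in order, with 1 library per age. Erythroid genes sum to 208 RPKM in the E16.5 library and 4.35 at P1, while connective tissue (73.1 and 61.6) and microglial genes (17.0 and 15.8) stay close to level.

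Most of the factors that specify ganglion cells, the output neurons of the retina, were lower in the newborn library. Of 28 transcription factors on the list, 26 reached 1 RPKM, and 16 of these 26 were lower and 0 higher (background 2.49% lower). None of the 26 lay above 0, the median difference was -1.13 against -0.02 for all genes, and the GC-centred median was -1.02 with 14 lower. In whole tissue, fewer cells of a type and less RNA per cell cannot be told apart.

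Atoh7, the basic helix-loop-helix (bHLH) factor that makes progenitors competent to form ganglion cells, stood at 195 RPKM at E16.5, 21.1 RPKM at P1 and 7.84 RPKM at P3. Its E16.5 to P1 ratio was 9.27, with a 95% interval of 8.40 to 10.2. Such intervals are exact binomial intervals computed from estimated reads, 4597 and 438 for Atoh7, and cover counting error only. Pou4f2, the POU factor that drives ganglion cell differentiation, stood at 31.4 and 11.2 RPKM, a ratio of 2.81 (2.52 to 3.12). Its relatives Pou4f1 (40.6 and 19 RPKM, difference -1.05) and Pou4f3 (12 and 6.03 RPKM, difference -0.88) were both lower in value, and Pou4f3 missed the threshold.

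The LIM factor Isl2, which marks a subset of ganglion cells, stood at 22.4 RPKM in the E16.5 library and 5.92 at P1, a difference of -1.76. Isl1, used by ganglion cells and later by bipolar and amacrine cells, stood at 24.6 and 10.3 RPKM and was back at 29.8 RPKM by P7. The homeobox factors Dlx1 and Dlx2, which act in ganglion and amacrine precursors, were at 9.10 and 10.4 RPKM at E16.5 and 2.05 and 2.34 RPKM at P1. Both were under 1 RPKM at P3. The Iroquois factors Irx2 (13.3 and 3.18 RPKM) and Irx4 (14.4 and 4.61 RPKM), the T-box factor Eomes (12.3 and 5.01 RPKM) and the bHLH factor Nhlh1 (6.37 and 1.39 RPKM) were also lower.

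The members that missed the threshold included factors shared with many young neurons. Sox11 stood at 78.0 and 43.3 RPKM (difference -0.84) and Sox4 at 189 and 133 RPKM (difference -0.50), and both are used by newborn neurons in general. Nhlh2 (10.5 and 9.18 RPKM) and the zinc finger factor Myt1 (7.89 and 7.74 RPKM) differed by -0.18 and -0.03. The 3 Onecut factors, shared between ganglion and horizontal cells, gave differences of -1.12 for Onecut1, -0.65 for Onecut2 and -1.04 for Onecut3, and Onecut3 was at -0.60 after GC centring.

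Genes that build the ganglion cell axon were lower as well, although less uniformly. Of 31 structural and marker genes, 11 were lower and 2 higher (background 2.49% and 1.17%), with a median difference of -0.84 (-0.66 GC-centred, again 11 lower and 2 higher). Cntn2, an adhesion molecule of outgrowing axons, stood at 26.5 RPKM at E16.5, then 1.95 at P1 and 1.15 by P3, a ratio of 13.6 (11.7 to 15.8). Among genes of at least 5 RPKM, and leaving aside the globins and the gene models known only by LOC or Gm names, Cntn2 and Atoh7 had the lowest differences, -3.22 and -3.15.

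The growth cone protein gene Gap43 stood at 365 RPKM at E16.5, then 119 at P1 and 46.8 by P3. The neuronal tubulin Tubb3 (377 and 124 RPKM) and the intermediate filament gene Ina (383 and 131 RPKM) were lower by about the same ratio, 3.05 and 2.92, with Tubb3 subject to reads shared among tubulins. Neurofilaments differed among themselves. Nefm went from 148 to 40.7 RPKM (difference -1.84) and Nefl from 155 to 64.6 RPKM (-1.25), while the heavy chain Nefh, which is taken up late in axon maturation, stood at 1.66 and 1.08 RPKM and reached 28.5 RPKM at P14. The gamma-synuclein gene Sncg (279 and 113 RPKM), Islr2 (126 and 50.3 RPKM) and Nrn1 (17.4 and 4.95 RPKM) were lower.

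Several ganglion cell genes lay near 0 or above it. The vesicular glutamate transporter Slc17a6 stood at 6.41 and 5.76 RPKM, the netrin receptor Dcc at 6.95 and 6.58 RPKM and the acetylcholine receptor subunit Chrnb3 at 7.0 and 6.87 RPKM. Thy1, a surface protein of maturing ganglion cells, stood at 9.94 and 21.5 RPKM (difference 1.04), and the receptor subunit Chrna6 at 2.26 and 6.54 RPKM (1.21). Thy1 continued to 57.6 RPKM at P14 and Chrna6 to 23.8 RPKM. Of 29 genes for axon guidance, 1 was higher and 1 lower (background 1.17% and 2.49%). Their median was -0.04 (-0.13 GC-centred and 0.09 with a common sum). The plexin Plxna2, a semaphorin receptor, was the higher one, with 7.40 and 17.4 RPKM.

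**Figure D4:**
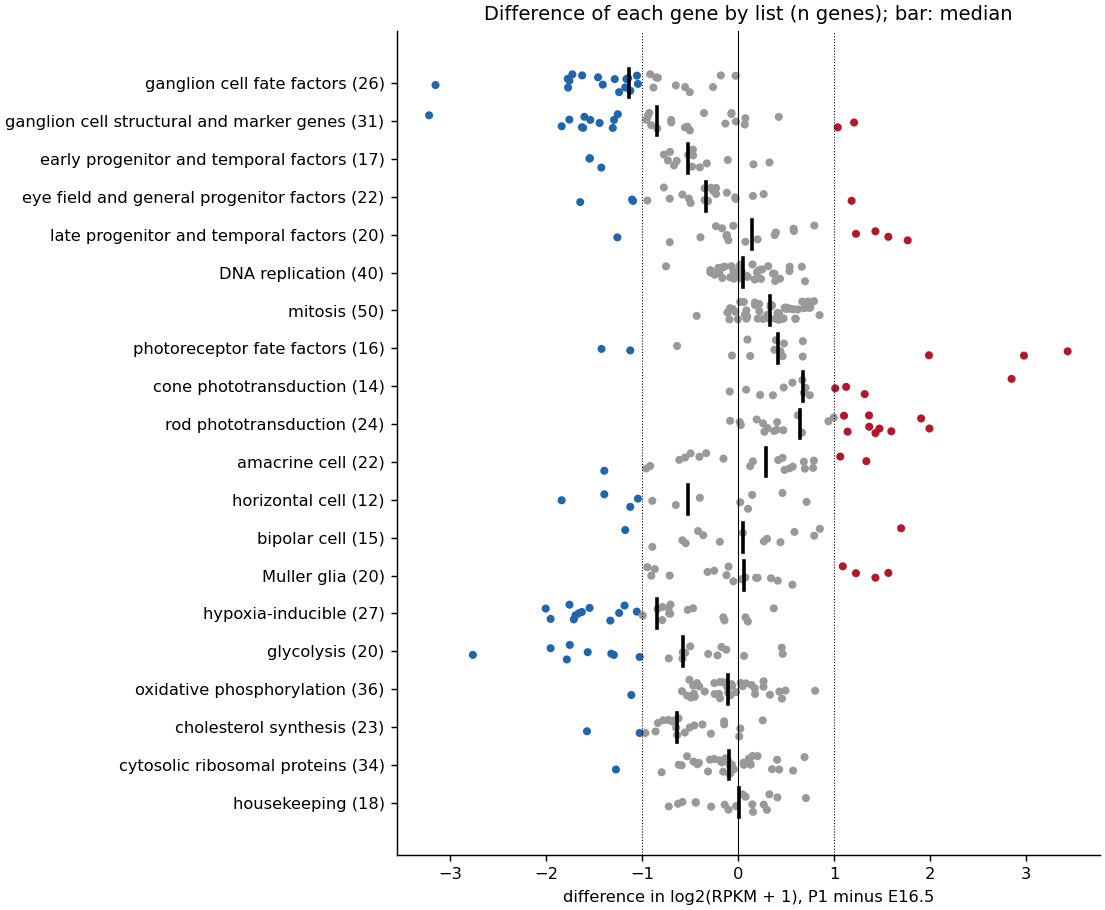
Difference in log2(RPKM + 1), P1 minus E16.5, of each gene (point) in 20 of the gene lists, with the number of genes in parentheses, the list median as a bar and the threshold of 1 as dotted lines (blue lower, red higher). Ganglion cell fate factors have a median of -1.13 and hypoxia-inducible genes of -0.84, while the medians of the cone (0.68) and rod (0.64) lists lie above 0.

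Of 17 genes of early progenitors and temporal identity, 3 were lower and 0 higher (background 2.49% lower and 1.17% higher), with a median of -0.52 (-0.61 GC-centred). Fgf15, a growth factor gene of early retinal progenitors, stood at 248 RPKM at E16.5, then 91.5 at P1, 16.9 by P3 and 1.48 at P7. The Wnt modulator Sfrp2 stood at 109, 36.8 and 12.9 RPKM at the first 3 ages and the POU factor Pou2f2 at 17.8, 5.41 and 2.83 RPKM. The mRNA-binding protein genes Igf2bp1 (11.8 and 6.47 RPKM) and Igf2bp2 (12.1 and 7.03 RPKM) were lower in value without reaching the threshold. Lin28b, an inhibitor of let-7 microRNA processing, was already near 1 RPKM, at 1.05 and 0.904.

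Genes of late progenitors, which give rise to rods, bipolar cells and Muller glia, gave 4 higher and 1 lower of 20 (background 1.17% and 2.49%), with 9 of the 20 below 0. Their median was 0.14 (0.22 GC-centred), and 0.01 when the filter was raised to 5 RPKM. The nuclear factor I gene Nfix, a late temporal factor, stood at 1.71 RPKM at E16.5, then 8.22 at P1 and 17.1 by P3, a P1 to E16.5 ratio of 4.81 (3.99 to 5.86). Its relatives Nfib (3.30 and 6.46 RPKM, difference 0.79) and Nfia (1.96 and 3.41 RPKM, 0.58) did not reach the threshold. The other 3 higher genes are shared with Muller glia, namely the retinaldehyde-binding protein gene Rlbp1 (4.08, 14 and 40.9 RPKM at E16.5, P1 and P3), the carbonic anhydrase gene Car2 (16.1 and 45.1 RPKM) and Crym (4.79 and 12.6 RPKM), which encodes a thyroid hormone-binding protein of the cytosol. The D-type cyclin Ccnd3 was the lower one, with 8.77 and 3.08 RPKM (-0.98 after GC centring).

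Glial markers were mixed. Of 20 Muller glia genes 4 were higher and 0 lower (background 1.17% higher), with a median of 0.06 (0.07 GC-centred). The fourth higher gene was the potassium channel Kcnj10 (1.23 and 3.74 RPKM), which buffers potassium in mature glia. Genes that glia share with progenitors were lower in value, with Vim at 54.5 and 28.7 RPKM, Sox9 at 49.5 and 29.8 RPKM and the Notch effector Hes1 at 44.1 and 22.4 RPKM. Among 22 eye field and general progenitor factors, 3 were lower (Notch3, Six3 and Nes) and 1 higher (Hey2). The background was 2.49% lower and 1.17% higher, and the list median was -0.33 (-0.18 GC-centred). Six3 (99.7 and 45.8 RPKM, difference -1.10) and the intermediate filament gene Nes (33.0 and 14.9 RPKM, -1.09) fell just short of the threshold after GC centring, at -0.99 and -0.91.

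None of 50 mitosis genes and none of 40 DNA replication genes differed by 1 or more, and with 3.66% of all genes past the threshold so few are near the background. The list medians were 0.33 for mitosis (0.25 GC-centred, 42 of 50 above 0) and 0.05 for replication (0.04 GC-centred, 25 of 40 above 0). The median of all genes was -0.02. Mki67, a marker of cycling cells, had the highest difference of the mitosis list, with 99.8 RPKM at E16.5, then 181 at P1, 81.9 by P3 and 4.63 at P7 (difference 0.85, ratio 1.81, interval 1.77 to 1.85). The mitotic cyclin Ccna2 stood at 59.5 and 101 RPKM and the spindle protein Aspm at 11.3 and 19.6 RPKM. The kinase Plk1 had the lowest difference of that list, -0.43 (22.4 and 16.3 RPKM). The licensing factor Cdt1, which loads the replicative helicase before S phase, had the lowest difference of the replication list, -0.75 (22.7 and 13.1 RPKM). Top2a, a topoisomerase of dividing cells, stood at 36.1 and 43.4 RPKM.

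Promoters of 2 mitosis genes are shown because the list shares 2 short elements, the CCAAT box and the cell cycle homology element TTTGAA. Sequences are RefSeq windows of build GRCm38.p6, from 250 bases before to 50 bases after the transcript start, and are printed 5′ to 3′ on the strand of the gene, with matches on either strand in capitals. Cdk1, the kinase that starts mitosis (difference 0.43), has its window at chr10:69352863-69353162 on the minus strand, and Mki67 at chr7:135716330-135716629 on the minus strand.
Cdk1: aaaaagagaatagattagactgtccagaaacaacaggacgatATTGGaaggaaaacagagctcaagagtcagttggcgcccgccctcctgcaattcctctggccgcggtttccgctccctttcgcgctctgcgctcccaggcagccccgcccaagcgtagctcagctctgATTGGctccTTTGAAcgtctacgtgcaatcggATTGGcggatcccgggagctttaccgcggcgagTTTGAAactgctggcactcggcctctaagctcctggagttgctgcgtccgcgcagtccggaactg
Mki67: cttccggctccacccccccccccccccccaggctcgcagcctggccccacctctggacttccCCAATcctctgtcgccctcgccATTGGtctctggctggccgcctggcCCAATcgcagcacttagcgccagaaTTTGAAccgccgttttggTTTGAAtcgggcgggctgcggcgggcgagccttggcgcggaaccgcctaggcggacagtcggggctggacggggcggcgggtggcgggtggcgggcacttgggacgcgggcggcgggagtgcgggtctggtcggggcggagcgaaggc
Of 42 mitosis genes with a promoter in the table, 32 (76.2%) had CCAAT and 29 (69.0%) had TTTGAA, against 37.9% and 18.1% of all 27025 promoters. These are matches of letters only and say nothing about what binds there.

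Cell cycle exit genes were mostly near 0, with 2 of 15 lower and 0 higher (background 2.49% and 1.17%). Cdkn1c, an imprinted inhibitor of cyclin-dependent kinases that acts as embryonic progenitors leave the cycle, stood at 95.4 RPKM at E16.5, then 27.4 at P1 and 14.3 by P3. Cdkn1b, the inhibitor that acts throughout retinal development, stood at 29.0 and 36.8 RPKM.

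Of 17 genes on the list of proneural and precursor factors, 2 were higher and 4 lower (background 1.17% and 2.49%). The other 11 did not reach the threshold. These counts include Gadd45a and its relative Gadd45g, which are not proneural factors. Besides Atoh7, the lower genes were Neurog2 (102 and 39.1 RPKM), a bHLH factor of neurogenic progenitors, Ptf1a (24.8 and 8.80 RPKM), which specifies horizontal and amacrine cells, and the stress and growth arrest gene Gadd45a (53.1 and 18.1 RPKM). The higher genes were Neurod4 (38.2, 86.7 and 187 RPKM at E16.5, P1 and P3), a bHLH factor of later precursors, and Gadd45g (7.60, 18.1 and 33.8 RPKM). Neurod4 was at 0.96 after GC centring. Foxn4, which acts upstream of Ptf1a, stood at 51.7 and 27.4 RPKM, a difference of -0.89 that was -0.45 after GC centring.

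Of 24 genes on the rod list 9 were higher and 0 lower (background 1.17% higher), with a median of 0.64 (0.85 GC-centred). Of 14 genes on the cone list 4 were higher and 0 lower (background 1.17% higher), with a median of 0.68 (0.60 GC-centred). Both lists hold genes that rods and cones share, so these counts do not separate the cell types. The factors that set photoreceptor fate gave 3 higher and 2 lower of 16 (background 1.17% and 2.49%), with a median of 0.42 (0.30 GC-centred). Of the higher genes in these lists, Nr2e3, Samd7, Nxnl1 and Guca1a were under 1 RPKM at E16.5. They passed the filter through the P1 library alone, which fixed their direction.

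Among the fate factors, Nr2e3, Samd7 and Nrl were the higher ones. Nr2e3, a nuclear receptor that represses cone genes in rods, stood at 0.708 RPKM at E16.5, then 17.4 at P1, 72.2 by P3 and 192 at P7, and its P1 to E16.5 ratio was 24.6 (17.1 to 38.4, from 27 and 598 estimated reads). Samd7, a repressor of transcription in photoreceptors, stood at 0.390, 9.94, 26.0 and 66.8 RPKM at the same ages. Nrl, the leucine zipper factor that directs precursors to the rod fate, stood at 4.45, 20.6, 99.0 and 233 RPKM, a ratio of 4.63 (4.10 to 5.25). Factors common to cones and rods differed less. Crx stood at 44.5 and 71.6 RPKM (difference 0.67), Otx2 at 60.6 and 82.6 RPKM (0.44) and Neurod1 at 78.3 and 109 RPKM (0.48).

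The lower fate factors were Thrb and Onecut1. Thrb, the thyroid hormone receptor needed for M opsin, stood at 12.7 RPKM at E16.5, then 4.11 at P1, 6.68 by P3 and 10.1 at P7, and P1 was its lowest age. Onecut1 stood at 12 and 4.97 RPKM. Rxrg, a retinoid receptor of cones, stood at 8.58 and 5.17 RPKM, a difference of -0.64 short of the threshold.

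Opn1sw, the short-wave cone opsin, stood at 4.03 RPKM at E16.5, then 35.3 at P1, 37.8 by P3 and 112 at P28, a P1 to E16.5 ratio of 8.74 (7.31 to 10.5). The other higher genes of the cone list were Guca1a (0.95 and 3.86 RPKM), which activates guanylate cyclase, the potassium channel subunit Kcnv2 (1.2 and 3.81 RPKM) and the cone transducin gamma subunit Gngt2 (7.48 and 16.1 RPKM). The cone transducin alpha subunit Gnat2 stood at 5.52 and 8.64 RPKM (0.57) and the cone G protein beta subunit Gnb3 at 23.8 and 38.9 RPKM (0.68).

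The higher genes of the rod list included structural as well as phototransduction genes. Rp1, a protein of the photoreceptor axoneme, stood at 1.05 and 7.14 RPKM, a ratio of 6.83 (5.54 to 8.49). Pdc, the phosducin gene, stood at 17.7 and 69.3 RPKM, and Rbp3, the retinoid carrier of the space around photoreceptors, at 32.8 and 101 RPKM. The disc rim proteins stood close to each other, with Prph2 at 5.90 and 17.6 RPKM and Rom1 at 6.15 and 18.8 RPKM. Recoverin (Rcvrn, 1.1 and 4.52 RPKM), Nxnl1 (0.398 and 2.60 RPKM), arrestin (Sag, 1.02 and 3.46 RPKM) and the phosphodiesterase subunit Pde6g (3.88 and 9.48 RPKM) completed the set of 9.

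Transcripts of mature rods need a separate reading. Gnat1, the rod transducin alpha subunit, stood at 16.5 and 19.95 RPKM at E16.5 and P1, 5.32 at P3 and 3046 at P28. It was thus higher at E16.5 and P1 than at P3. Over the 7 genes of at least 20 RPKM at P28 whose P3 value was at most 0.2% of it, the median share of the P28 value was 0.542% at E16.5, 0.630% at P1 and 0.139% at P3. The source of these low levels was not tested. Each gene then had subtracted the share of its P28 value given by Gnat1 and Guca1b (median 0.727% at E16.5 and 0.730% at P1). That left 18 genes of the rod list at 1 RPKM or more, of which 11 were higher and 0 lower, with a median of 1.60. Taking nearly equal shares from both libraries tends to enlarge a difference that remains. The larger median was thus partly built in and adds no support.

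Promoters of Samd7 and Rbp3 are shown because both hold TAATCC, the core bound by Otx and Crx homeodomain proteins. Their windows are chr3:30746043-30746342 and chr14:33953753-33954052 in GRCm38.p6 (RefSeq), both on the plus strand, with the matches in capitals.
Samd7: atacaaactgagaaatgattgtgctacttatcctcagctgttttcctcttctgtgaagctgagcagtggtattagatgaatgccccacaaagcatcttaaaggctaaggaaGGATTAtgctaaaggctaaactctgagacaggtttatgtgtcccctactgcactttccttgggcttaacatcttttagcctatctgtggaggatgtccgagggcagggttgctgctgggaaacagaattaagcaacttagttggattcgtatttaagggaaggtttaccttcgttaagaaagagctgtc
Rbp3: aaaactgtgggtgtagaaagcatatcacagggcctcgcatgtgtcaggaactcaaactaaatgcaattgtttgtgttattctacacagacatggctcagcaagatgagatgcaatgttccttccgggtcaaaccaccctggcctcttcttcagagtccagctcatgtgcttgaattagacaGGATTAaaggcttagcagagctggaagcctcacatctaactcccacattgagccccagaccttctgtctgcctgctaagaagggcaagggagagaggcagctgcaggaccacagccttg
TAATCC was found on either strand in 5 of 16 rod promoters (31.2%), 2 of 7 cone promoters (28.6%) and 3 of 15 promoters of fate factors (20%), against 7.16% of all promoters. No match was found in the windows of the higher genes Nr2e3, Nrl, Opn1sw, Pdc, Prph2, Rom1 and Nxnl1. Genes with a match included the lower gene Thrb, and Crx, Gnat2, Aipl1 and Abca4, which did not reach the threshold. These too are matches of letters only.

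**Figure D5:**
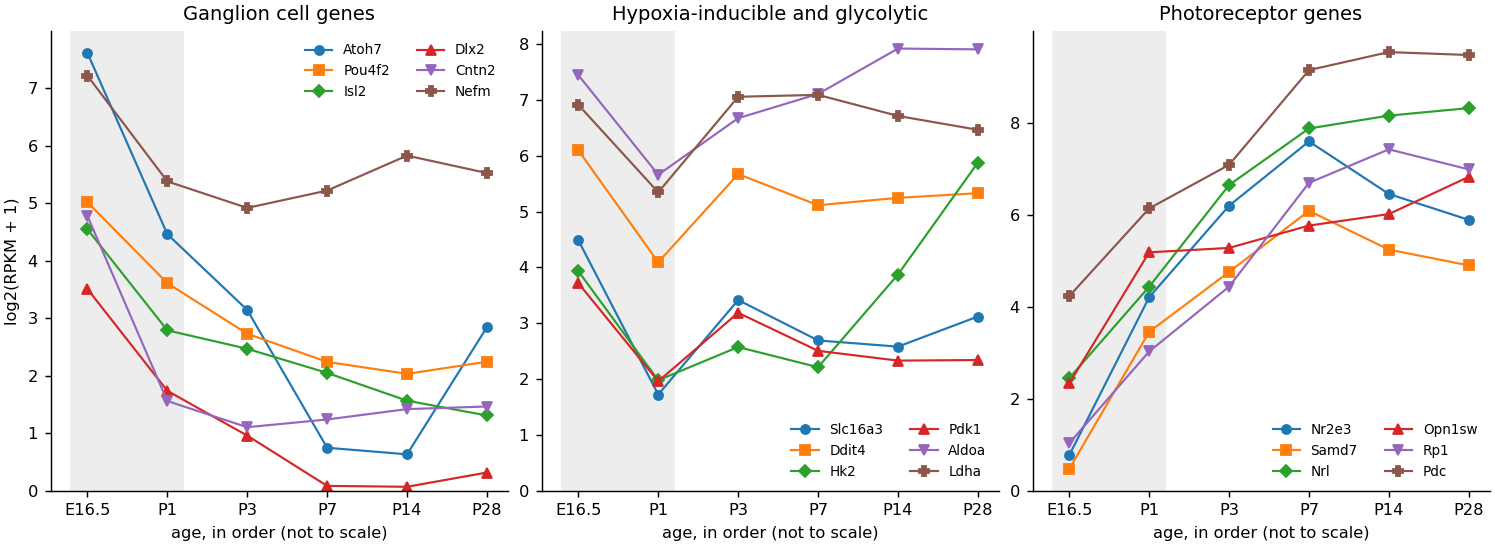
Levels of 18 genes as log2(RPKM + 1) by age in order, 1 library per age, with E16.5 and P1 shaded: ganglion cell genes (left), hypoxia-inducible and glycolytic genes (middle) and photoreceptor genes (right). Atoh7 goes from 195 to 21.1 RPKM within the shaded span, Ldha from 119 to 39.6 and back to 132 RPKM at P3, and Nr2e3 from 0.708 to 17.4 RPKM.

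Of 12 horizontal cell genes 4 were lower and 0 higher (background 2.49% lower), with a median of -0.52 (-0.45 GC-centred), and the 4 were Nefm, Ptf1a, Onecut1 and Onecut3, which other lists share. Prox1, a homeobox factor kept by mature horizontal cells, stood at 10.2 and 17.3 RPKM (difference 0.71). Of 22 amacrine genes 2 were higher and 1 lower (background 1.17% and 2.49%), with a median of 0.29 (0.33 GC-centred). The higher ones were the homeobox factor Meis2 (4.12 and 11.9 RPKM) and Gad1 (1.53 and 4.28 RPKM), the enzyme that makes GABA, with Gad1 at 0.97 after GC centring. The vesicular acetylcholine transporter Slc18a3 stood at 0.716 and 1.95 RPKM. The bipolar list gave 1 higher, Lrit3 (2.34 and 9.84 RPKM), and 1 lower of 15 (background 1.17% and 2.49%). The lower gene was Isl1, which ganglion and amacrine cells also use. Synaptic genes gave 2 higher and 0 lower of 31 (background 1.17% and 2.49%), with a median of 0.10 (0.17 GC-centred). The higher ones were Stx3 (11.4 and 25.1 RPKM), a syntaxin of ribbon synapses, and the glycine receptor subunit Glra2 (2.09 and 5.21 RPKM, 0.80 after GC centring).

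Of 34 listed hypoxia-inducible genes, 33 were measured and 27 reached 1 RPKM, and of these 12 were lower and 0 higher (background 2.49% lower). The median was -0.84 against -0.02 for all genes, or -0.93 after GC centring with 11 lower, and 24 of 27 lay below 0. The median level of the 27 genes was 10.4 RPKM at E16.5, then 3.50 at P1, 4.95 by P3, 4.68 at P7, then 6.24 at P14 and 6.33 by P28.

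Ddit4, an inhibitor of mTOR signalling that responds to hypoxia, stood at 67.4 RPKM at E16.5, then 16.1 at P1 and 49.95 by P3, an E16.5 to P1 ratio of 4.2 (3.74 to 4.71). Pdk1, which keeps pyruvate out of mitochondria, stood at 12.2, 2.89 and 8.11 RPKM, and the mitophagy receptor Bnip3 at 12.1, 3.50 and 7.05 RPKM. For these genes the P1 library was the lowest of the 3 youngest ages. The step from P1 to P3 was not centred on GC content. Its correlation with GC content was 0.27, against -0.49 for the step from E16.5 to P1. The P3 library also has the other form of title. The same limits hold for the P3 values of other genes. Stc2 (4.96 and 0.819 RPKM) and Loxl2 (9.43 and 2.30 RPKM), which encode secreted proteins, and Ak4 (4.64 and 0.824 RPKM) were also lower. Stc2 and Ak4 passed the filter through the E16.5 library alone, which fixed their direction. The glucose transporter Slc2a1 stood at 179.5 and 70.7 RPKM. The prolyl hydroxylases that sense oxygen and are themselves induced by hypoxia, Egln1 (60.5 and 28.6 RPKM) and Egln3 (3.87 and 1.15 RPKM), were lower.

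Vegfa, the growth factor that guides retinal vessels, stood at 49.4 RPKM at E16.5, then 24.3 at P1 and 46.1 by P3, a difference of -0.99 just short of the threshold. The ratio was 2.03 (1.89 to 2.18). Members near or above 0 were the histone demethylase Kdm3a (19.6 and 17.6 RPKM), Mxi1 (11.9 and 12.6 RPKM) and Ndrg1 (14.1 and 18.5 RPKM, difference 0.37).

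Of 20 glycolysis genes 8 were lower and 0 higher (background 2.49% lower), with a median of -0.58 (-0.54 GC-centred, 7 lower). The median was -1.03 when the filter was raised to 5 RPKM. Hk2 counts in both lists. The median level of the 20 genes was 16.3 RPKM at E16.5, then 7.18 at P1, 10.8 by P3 and 32.4 at P28. Slc16a3, the transporter that exports lactate, stood at 21.4 RPKM at E16.5, then 2.30 at P1 and 9.67 by P3, a ratio of 9.30 (7.77 to 11.3). Along the pathway, hexokinase 2 (Hk2) stood at 14.3 and 2.94 RPKM, Gpi1 at 18.8 and 6.93, the liver-type phosphofructokinase Pfkl at 18.3 and 4.73, and aldolase A (Aldoa) at 173 and 49.5 RPKM.

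Further down the pathway, Tpi1 stood at 83.2 and 33.3 RPKM and the pyruvate kinase gene Pkm2 at 171 and 83.6 RPKM. Lactate dehydrogenase A (Ldha), which turns pyruvate into lactate, stood at 119 RPKM at E16.5, then 39.6 at P1 and 132 by P3, a ratio of 3.01 (2.80 to 3.24). The paralogous enzymes did not show the same size of difference. Hk1 stood at 12.1 and 7.91 RPKM (-0.55), Pfkp at 29.1 and 23.2 RPKM (-0.31), Pfkm at 10.1 and 8.88 RPKM (-0.17), Ldhb at 56.6 and 51.9 RPKM (-0.12) and the neuronal enolase Eno2 at 5.14 and 7.42 RPKM (0.45). Gapdh was at only 4.71 and 2.46 RPKM, and it and Pgk1 (4.64 and 2.78 RPKM) have many processed copies in the genome that may take their reads.

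Oxidative phosphorylation, which burns the pyruvate that glycolysis supplies, gave 1 lower and 0 higher of 36 genes (background 2.49% and 1.17%). Its median was -0.11 (-0.04 GC-centred, 0.01 with a common sum). The lower gene was Uqcrb (34.0 and 15.2 RPKM), a subunit of complex III, which did not reach the threshold with a common sum.

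Promoters of 3 genes of these lists are shown because they carry ACGTG, the core that hypoxia-inducible factors bind. They are, in GRCm38.p6 (RefSeq), Slc16a3 at chr11:120948817-120949116 on the plus strand, Bnip3 at chr7:138909457-138909756 on the minus strand and Ldha at chr7:46845554-46845853 on the plus strand. Capitals mark ACGTG on either strand, and where it overlaps its own reverse complement in CACGTG it was counted on both strands.
Slc16a3: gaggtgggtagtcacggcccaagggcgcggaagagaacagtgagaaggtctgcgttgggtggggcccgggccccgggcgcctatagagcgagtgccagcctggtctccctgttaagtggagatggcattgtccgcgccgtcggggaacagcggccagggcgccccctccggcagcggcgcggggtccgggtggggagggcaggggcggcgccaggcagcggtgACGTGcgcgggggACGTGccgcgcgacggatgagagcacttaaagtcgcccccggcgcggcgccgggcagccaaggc
Bnip3: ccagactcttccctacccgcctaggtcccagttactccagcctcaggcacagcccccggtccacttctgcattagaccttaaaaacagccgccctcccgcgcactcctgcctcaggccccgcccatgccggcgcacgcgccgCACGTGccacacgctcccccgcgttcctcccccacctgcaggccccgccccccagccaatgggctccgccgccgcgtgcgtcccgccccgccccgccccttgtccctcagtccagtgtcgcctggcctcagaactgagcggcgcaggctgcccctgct
Ldha: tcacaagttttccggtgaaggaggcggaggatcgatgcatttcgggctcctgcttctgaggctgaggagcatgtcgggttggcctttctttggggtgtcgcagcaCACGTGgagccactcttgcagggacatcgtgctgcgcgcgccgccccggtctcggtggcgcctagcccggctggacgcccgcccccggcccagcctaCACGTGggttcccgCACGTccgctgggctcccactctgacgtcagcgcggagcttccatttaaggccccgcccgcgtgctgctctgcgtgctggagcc
ACGTG was found in 14 of 22 hypoxia promoters (63.6%) and 9 of 20 glycolysis promoters (45.0%), against 26.3% of the 9770 members with a promoter and 19.7% of all promoters. No match was found in the windows of the lower genes Gpi1, Pfkl, Aldoa, Tpi1, Pkm2, Pdk1, Ak4 and Stc2, nor in that of Vegfa, which says only that these letters are not in 300 bases around the start.

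Imprinted, fetal growth and cholesterol synthesis genes were lower in part. Of 24 imprinted and fetal growth genes 4 were lower and 0 higher (background 2.49% lower), with a median of -0.24 (-0.18 GC-centred). Besides Cdkn1c and Dio3, these were Igfbp2 and Igfbp5, binding proteins for insulin-like growth factors. Igfbp2 stood at 58.1 and 11.6 RPKM (difference -2.23) and Igfbp5 at 28.5 and 12.9 RPKM. Igf2 itself stood at 17.5 and 19.2 RPKM and the imprinted RNA H19 at 96.3 and 77.3 RPKM. Of 23 cholesterol synthesis genes, 20 lay below 0, with a median of -0.63 (-0.55 GC-centred) against -0.02 for all genes. By 1 or more, 2 of the 23 were lower (background 2.49% lower). One was Mvd (14.8 and 4.29 RPKM), which makes isopentenyl diphosphate. Cyp51 (29.5 and 18.0 RPKM), a demethylase of the pathway, did not reach the threshold.

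Thyroid hormone signalling, the subject of the series, gave 1 higher and 2 lower of 16 genes (background 1.17% and 2.49%). Dio3, the deiodinase that inactivates thyroid hormone, stood at 16.1 RPKM at E16.5, then 4.12 at P1 and 0.857 by P3, a ratio of 3.91 (3.16 to 4.86). Its antisense neighbour Dio3os stood at 14.7 and 5.95 RPKM, and the strand used in counting is not known, so reads of the pair may be shared. Thrb, described above, was the other lower gene, and Crym the higher one. The receptor Thra stood at 29.7 and 19 RPKM (-0.62, or -0.17 after GC centring).

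Several broad gene groups showed few or no genes past the threshold. None of 24 genes for DNA methylation and Polycomb, none of 18 housekeeping genes and none of 14 immediate early and heat shock genes differed by 1. The list of cytosolic ribosomal proteins gave 1 lower (Rpl11, 68.8 and 27.9 RPKM) and 0 higher of 34, with a median of -0.10 that was 0.03 after GC centring. It covers only a part of that family and leaves out Rps13, which is given at the end. The apoptosis genes gave 1 lower and 0 higher of 23. Glucocorticoid-inducible genes, of which many respond to the hormone surge around birth in other organs, gave 1 lower (Ddit4) and 0 higher of 14, with a median of -0.09. Each of these lists thus held at most 1 such gene, beside a background of 3.66%.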

How the data were processed

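Retinal messenger RNA of wild-type mice was sequenced from 1 library per age. The authors deposited RPKM values for 30042 genes, per the file headers. The genome build was mm9 and base calls were converted with bcl2fastq (2.17.1.14), both per the submitters' processing notes. Aligner, counter, annotation, strand and the treatment of reads with several matches: not given in the sources used here. No column of sample values went unused. Values were analysed as log2(RPKM + 1) in Python 3.11.15 (pandas 2.3.3, scipy 1.17.1) and no test was run, since each age has 1 library. Depth was estimated from the whole-read steps of values under 0.3 RPKM with reference transcript lengths; 67.9% (E16.5) and 66.2% (P1) of these were whole within 0.05 of a read, so depths and intervals are approximate. Genes named were the 15 highest and 15 lowest differences at 5 RPKM or more, up to 6 members of each of 43 lists with the greatest absolute difference, and 38 fixed genes; others were chosen after their values were seen. The genes, lists and motifs were chosen with earlier results of these data known. Some listed genes are not reported here. Of 944 listed genes 936 were measured. Alternatives changed the pseudocount, filter, scaling, fold and the P28 trace; GC centring was added after seeing the data.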

Additional observations from a re-analysis of the deposited data

How the results depend on the processing

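Against 160 higher and 341 lower genes, a pseudocount of 0.1 RPKM gave 425 and 649, a pseudocount of 0.5 gave 275 higher (481 lower), a filter at 5 RPKM gave 89 higher (279 lower) and a threshold of 1.5 gave 36 and 81. GC centring, chosen after seeing the data, gave 158 lower (150 higher), and with a common sum 234 were higher and 239 lower. Higher genes made up 31.9% of those past the threshold, 49.5% with a common sum and 48.7% after GC centring. Median-of-ratios scaling gave 173 and 317, no filter 160 and 341, and subtraction of the P28 trace 173 and 347. The median of the pigment epithelium and melanocyte list, which rests on 3 genes, went from -0.35 to 1.15 with the filter at 5 RPKM. Of the named genes, 14 no longer reached the threshold after GC centring (among them Six3, Nes, Onecut3 and Neurod4) and 7 with a common sum. The median of the ganglion cell fate factors ranged from -1.27 to -1.02 and of the hypoxia-inducible genes from -1.07 to -0.75 over these alternatives. The rod median ranged from 0.64 to 0.85, and was 1.60 only with the P28 trace subtracted, which tends to enlarge a difference that remains. The cause of these shifts was not tested. No paired analysis was possible because each age has 1 library, and for the same reason no library could be left out. At the estimated depth, a gene of 2 kb at 1 RPKM rests on few reads, so ratios of low genes are imprecise.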

Other observations

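The genes outside the lists given here were all chosen after their values were seen, and no count or test stands behind them as groups. Somatostatin (Sst) stood at 12.5 RPKM in the E16.5 library and 1.05 at P1, galanin (Gal) at 6.58 and 1.21, proenkephalin (Penk) at 10.7 and 2.98 and Adcyap1, which encodes PACAP, at 2.66 and 0.467 RPKM. The somatostatin receptor Sstr2 stood at 20.6 and 6.57 RPKM. Neuropeptide Y (Npy) was higher, with 1.47, 9.70 and 13.8 RPKM at E16.5, P1 and P3, although it rests on 12 and 70 estimated reads.

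Values of 3 genes of the alpha-arrestin family follow, picked for their differences. Txnip, an inhibitor of glucose uptake, stood at 9.48 RPKM at E16.5, then 34.6 at P1 and 2.35 at P28, Arrdc4 at 2.05 and 5.61 RPKM and Arrdc3 at 14.4 and 32.7 RPKM. Gm15441, annotated as antisense to Txnip, stood at 2.31 and 15.5 RPKM, and reads of the pair may be shared since the counting strand is unknown. Other genes picked for lower values were the POU factor Pou3f1 at 47.4 and 9.77 RPKM, the retinoic acid-binding protein gene Crabp2 at 28.7 and 7.30, Fgf3 at 10.9 and 2.53 and the homeobox factor Hmx1 at 111 and 42.0 RPKM.

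Small nuclear, nucleolar and Y RNAs made up 31 of the genes tested, of which 13 were higher and 2 lower (background 1.17% and 2.49%). Of the 13 higher genes that were listed at 0 at E16.5, 11 were of this kind. These 11 passed the filter through the P1 library alone, which fixed their direction, so the count of higher ones carries no weight. Libraries made from purified messenger RNA hold these RNAs only in part. Among the extreme differences were also copies that share sequence with abundant genes, such as Gm10036 (0.473 and 38.6 RPKM), Gm6594 (0.480 and 31.3 RPKM), Gm12270 (25.8 and 0.298 RPKM) and the ribosomal protein gene Rps13 (25.5 and 2.85 RPKM), whose values depend on how reads with several matches were assigned.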
